A study of Mus musculus with 8 samples.

Results

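The genes described here encode, in the nucleus, the protein subunits of oxidative phosphorylation (OXPHOS) and a group of factors that assemble complex I. They were taken by symbol from a table of 45706 mouse genes: the Nduf, Sdh, Uqcr, Cox and Atp5 families, with pseudogene symbols left out and with at least 10 counts in at least 4 of 8 wells. Of 104 symbols that matched, 7 were pseudogene symbols, 8 fell under the count limit and 89 were kept. These 89 members are 37 genes of complex I, 4 of complex II, 8 of complex III, 15 of complex IV, 17 of complex V and 8 complex I assembly factors (the Ndufaf genes). The choice rests on symbols and a count limit and used no difference between wells. Ndufa4 was placed in complex IV, where its protein is found, and Atp5s, a coupling factor, in complex V by its symbol. Ndufb4c, counted in complex I by its symbol, is annotated as a processed pseudogene of Ndufb4.

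Bulk poly-A RNA-seq was done on cultured hippocampal neurons of C57/Bl6 wild type mouse embryos (embryonic day 18), grown for 12 to 14 days in vitro and given melanin-concentrating hormone (MCH, 1 µM) or vehicle (H2O) for 4 h. There were 4 wells of each, numbered as replicates 1 to 4. By the study's methods the wells stem from 2 cultures, each with 2 vehicle and 2 MCH wells, and no source used here ties a number to a culture. Every culture had received 5-fluoro-2′-deoxyuridine, a drug that limits dividing cells. An Alzheimer's disease tag stands in the labels of all wells, whose genotype is wild type. A well held 26083936 to 31844861 estimated counts, and the members made up 0.969 to 1.07% of them.

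The respiratory chain passes electrons from NADH through complex I, and from succinate through complex II, to ubiquinone, then through complex III and cytochrome c to oxygen at complex IV. Complexes I, III and IV pump protons across the inner mitochondrial membrane, and complex V, the ATP synthase, uses that gradient to make ATP. Complexes I, III, IV and V are built from subunits of both genomes, nuclear and mitochondrial, while all subunits of complex II are nuclear-encoded. Neurons draw most of their ATP from this pathway.

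The wells fell apart by replicate number. Deviations from the treatment means correlated at 0.445 to 0.545 between a vehicle and an MCH well of the same number and at 0.475 to 0.521 between different numbers within a pair (1 with 2, 3 with 4), but at -0.548 to -0.438 between the pairs, which are called sides here. Deviations within a treatment sum to 0 by construction, so the negative values follow from the positive ones and add no further evidence. Markers of other cell types moved with the sides. Of all genes tested, 16.1% were called lower in replicates 3 and 4 and 18.6% higher. The summed level of 8 astrocyte markers was 352 to 475 CPM (counts scaled to a fixed library size) in replicates 1 and 2 and 1535 to 1743 CPM in replicates 3 and 4, and all 8 were called higher there by edgeR. All 4 markers of dividing cells (3.57 to 6.20 against 18.6 to 21.9 CPM) and all 7 tested fibroblast or vessel markers (20.0 to 26.1 against 55.5 to 61.6 CPM) were also called higher, as were 4 of 6 tested oligodendrocyte lineage markers. Of 10 neuronal markers, 6 were called lower in replicates 3 and 4, and their sum was 9237 to 9555 against 8406 to 8672 CPM. All 5 markers of inhibitory neurons were called lower (2586 to 2829 against 2088 to 2347 CPM). Mog and Sox10, markers of the oligodendrocyte lineage, were at 0 counts in every well, which allows up to 3 counts per well. The 3 microglia markers tested summed to 3.23 to 5.41 CPM over all wells, and 1 of them was called higher in replicates 3 and 4. In bulk RNA, fewer cells of a type and less RNA per cell cannot be told apart.

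The start regions of some members are shown first, since OXPHOS genes are known to share binding sites for a few factors, among them NRF1 and the ETS factor GABPA. The windows run from 250 bases before to 50 after the annotated start (RefSeq, GRCm38.p6, strand of the gene, all 5 on the minus strand). Atp5g1 (chr11:96075582-96075881) and Cox6b2 (chr7:4753045-4753344) had the clearest lower and higher level in replicates 3 and 4. Cox6b1 (chr7:30626065-30626364) is the common isoform beside Cox6b2, and Cox6a1 (chr5:115348909-115349208) and Ndufa8 (chr2:36049289-36049588) hold an NRF1 match. Capitals mark matches on either strand to GCGCATGCG (NRF1) and CCGGAAG (ETS family); the NRF1 letters overlap themselves on the opposite strand.
Atp5g1: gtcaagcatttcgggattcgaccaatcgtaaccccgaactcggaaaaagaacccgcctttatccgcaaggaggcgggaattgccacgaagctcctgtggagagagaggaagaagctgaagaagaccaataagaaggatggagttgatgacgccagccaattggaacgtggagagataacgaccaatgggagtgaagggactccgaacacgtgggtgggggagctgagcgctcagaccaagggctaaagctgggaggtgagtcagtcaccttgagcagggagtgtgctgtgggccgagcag
Cox6b2: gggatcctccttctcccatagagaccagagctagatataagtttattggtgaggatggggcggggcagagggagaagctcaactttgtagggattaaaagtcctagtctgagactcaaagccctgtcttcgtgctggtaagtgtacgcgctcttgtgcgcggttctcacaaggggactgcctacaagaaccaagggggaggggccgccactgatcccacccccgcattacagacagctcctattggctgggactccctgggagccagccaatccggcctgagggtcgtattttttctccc
Cox6b1: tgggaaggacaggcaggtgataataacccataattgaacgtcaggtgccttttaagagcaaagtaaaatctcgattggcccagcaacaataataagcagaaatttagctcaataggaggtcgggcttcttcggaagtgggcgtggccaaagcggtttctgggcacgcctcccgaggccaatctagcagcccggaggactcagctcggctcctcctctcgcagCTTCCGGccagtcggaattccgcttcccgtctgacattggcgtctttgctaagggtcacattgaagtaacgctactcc
Cox6a1: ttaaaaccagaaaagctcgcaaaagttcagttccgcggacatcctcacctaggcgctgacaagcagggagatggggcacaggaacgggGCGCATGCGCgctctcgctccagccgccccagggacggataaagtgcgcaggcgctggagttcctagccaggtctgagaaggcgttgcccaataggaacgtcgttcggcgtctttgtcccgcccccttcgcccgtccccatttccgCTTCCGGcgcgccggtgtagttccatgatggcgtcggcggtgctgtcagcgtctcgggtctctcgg
Ndufa8: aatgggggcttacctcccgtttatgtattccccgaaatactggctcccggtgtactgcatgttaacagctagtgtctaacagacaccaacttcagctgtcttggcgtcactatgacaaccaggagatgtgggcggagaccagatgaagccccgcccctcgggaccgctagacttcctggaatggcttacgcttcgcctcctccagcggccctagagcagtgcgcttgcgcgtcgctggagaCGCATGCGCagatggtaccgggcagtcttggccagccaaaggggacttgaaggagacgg
Of the 89 members, 72 had such a window, and 10 of these (13.9%) held the NRF1 letters, against 1.95% of 27025 genes with a window. The ETS letters stood in 18 (25.0%, against 9.93% of all), the YY1 letters AAGATGGCG in 8 (11.1%, against 1.64%) and the ERR family letters TCAAGGTCA in 2 (2.78%, against 0.466%). Of 14 members with a window that were called between the sides, 1 held the NRF1 letters and 2 the ETS letters, and of the 58 others 9 and 16 did. The YY1 letters stood in 2 of the 14 and 6 of the 58, and the ERR family letters in 1 of each. All members had passed a count limit, which the other genes with a window had not, and shares among the genes tested alone were not taken. A match is a run of letters and is not shown here to be a bound site.

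Levels were first set side by side in TPM, a unit that scales read counts by transcript length and library size. The median member stood at 802 TPM in complex IV, 547 TPM in complex V, 477 TPM in complex III, 238 TPM in complex II, 236 TPM in complex I and 32.1 TPM among the assembly factors. Together the members held 3.33 to 3.68% of all TPM in a well. The highest were Ndufa4 (a mean of 1306 TPM) and Atp5b, the catalytic beta subunit of the ATP synthase (1231 ± 70.2 TPM, SD, n = 8), whose ranges over wells overlapped (1247 to 1391 and 1140 to 1324 TPM). In the other classes the highest were Uqcrq, a small subunit of complex III (827 ± 69.6 TPM), Ndufa3 of complex I (806 ± 36.5 TPM), Sdhc, a membrane anchor of complex II (427 ± 43.0 TPM), and the assembly factor Ndufaf3 (82.6 ± 6.61 TPM). The lowest were Cox7a1 (8.27 ± 1.5 TPM), Cox6b2 (10.8 ± 5.46 TPM) and the assembly factor Ndufaf6 (13.7 TPM).

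TPM of a gene here sums all its transcripts, and short noncoding ones weigh much in some members. Noncoding transcripts carried 91% of the TPM of Ndufab1 and of Cox7b. On a second scale, CPM per kb of the highest coding transcript, the class medians were 181 for complex IV, 168 for complex V, 159 for complex III, 114 for complex II, 86.4 for complex I and 12.2 for the assembly factors. The order of the classes was the same on both scales. On this scale Ndufc2 (152) rather than Ndufa3 (140) led complex I, and Atp5b (593) rather than Ndufa4 (378) led all members. Noncoding transcripts carried 0% of the TPM of Ndufa4 and Ndufc2 in every well, at most 3.65% of Ndufa3 and at most 10.1% of Atp5b. The transcript lengths used on this scale were 349 bases for Ndufa3, 492 for Ndufa4, 683 for Ndufc2 and 1916 for Atp5b. The part of length in these changes of rank was not tested.

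**Figure D1:**
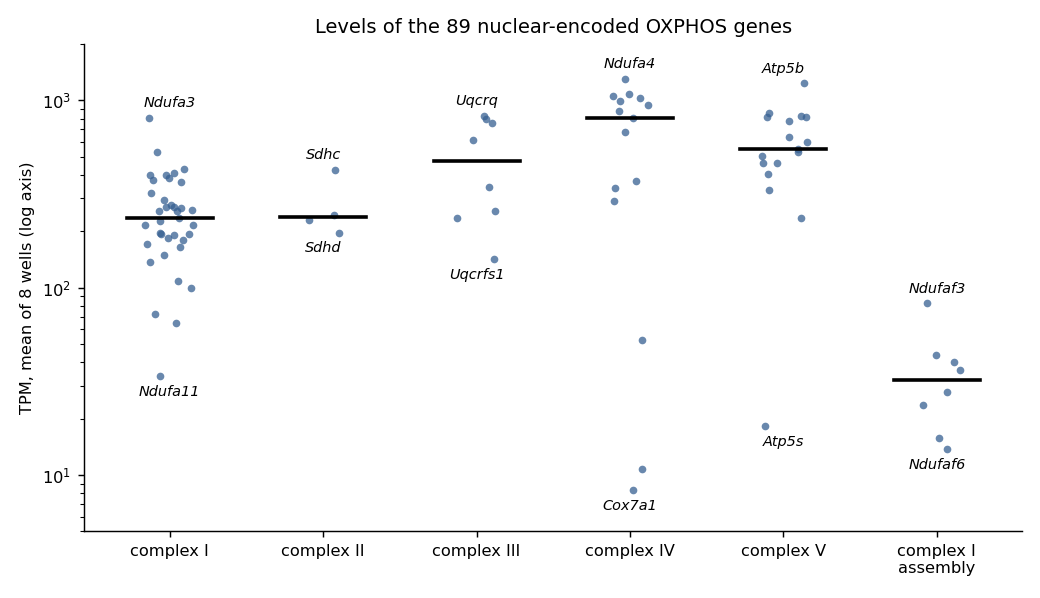
Mean TPM over 8 wells (log axis) of each of the 89 members, by complex, with the median of the class as a bar. Class medians run from 802 TPM in complex IV to 32.1 TPM in the assembly factors, and Cox7a1 and Cox6b2 lie far below the rest of complex IV.

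Several subunits exist as isoforms of separate genes, and a single isoform held nearly all of the signal in most pairs. Cox4i1, the common isoform of the regulatory subunit of complex IV, stood at 1026 ± 35.3 TPM (SD, n = 8), while Cox4i2, the isoform known from lung and low oxygen, had 0 to 2 counts in any well. Cox8a was at 1088 ± 71.0 TPM, whereas Cox8b, the heart and muscle isoform, had at most 1 count and Cox8c, a testis isoform, 0 counts, which allows up to 3 counts per well. Ndufa4l2, a paralog of Ndufa4 known to rise in low oxygen, had 1 to 10 counts. Cox6a2, the heart and muscle isoform of Cox6a, was 4.54 to 6.01% of the TPM of Cox6a1 and Cox6a2 together. Cox7a1, the heart and muscle isoform, was 1.72 to 2.76% of the TPM of Cox7a1 and Cox7a2 and 0.394 to 0.638% of their estimated counts. The 3 genes of the membrane ring subunit of the ATP synthase, which encode the same mature protein, were used side by side: Atp5g3 gave 45.8 to 48.5%, Atp5g1 36.8 to 40.7% and Atp5g2 at most 15.1% of their summed TPM.

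No member was called between MCH and vehicle. By the quasi-likelihood test of edgeR, with p-values adjusted after Benjamini and Hochberg over 14962 genes, 0 of 89 members had an adjusted p under 0.05, where 35 of all genes tested (0.234%) did, and DESeq2 also called 0 of 89. At an unadjusted p under 0.05 there were 4 members (8.5% of all genes tested), all 4 lower with MCH (4.22% of all genes). The differences were small and leaned one way: 86 of 89 members had a log2 fold change below 0, as 51.0% of all genes did, and the median member was at -0.064 beside -0.003 for all genes. The range ran from -0.37 (Cox7a1, at 11 to 19 counts per well) to 0.089 (Atp5s). The 95% interval of the log2 fold change lay within 0.5 of 0 for 87 members and within 0.25 for 74. All members passed the filter on low counts.

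All classes had a median below 0. Median log2 fold changes were -0.061 in complex I, -0.043 in complex II, -0.062 in complex III, -0.067 in complex IV, -0.075 in complex V and -0.074 in the assembly factors, and 37 of 37 complex I genes were below 0. The medians of the vehicle wells were spread more widely (SD 0.072) than those of the MCH wells (SD 0.017). The median member stood 0.054, 0.10, -0.069 and 0.043 (log2) from its mean over all wells in vehicle replicates 1 to 4, and -0.026, -0.008, -0.040 and -0.048 in MCH replicates 1 to 4. So 3 vehicle wells were above every MCH well and vehicle replicate 3 below all of them. In that well 9 of 89 members were above their own mean, against 79 in vehicle replicate 2. Without vehicle replicate 3 the median log2 fold change was -0.088 and 30 members had an unadjusted p under 0.05 (10.9% of all genes in that fit), with 0 called. Without vehicle replicate 2 the median was -0.037.

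**Figure D2:**
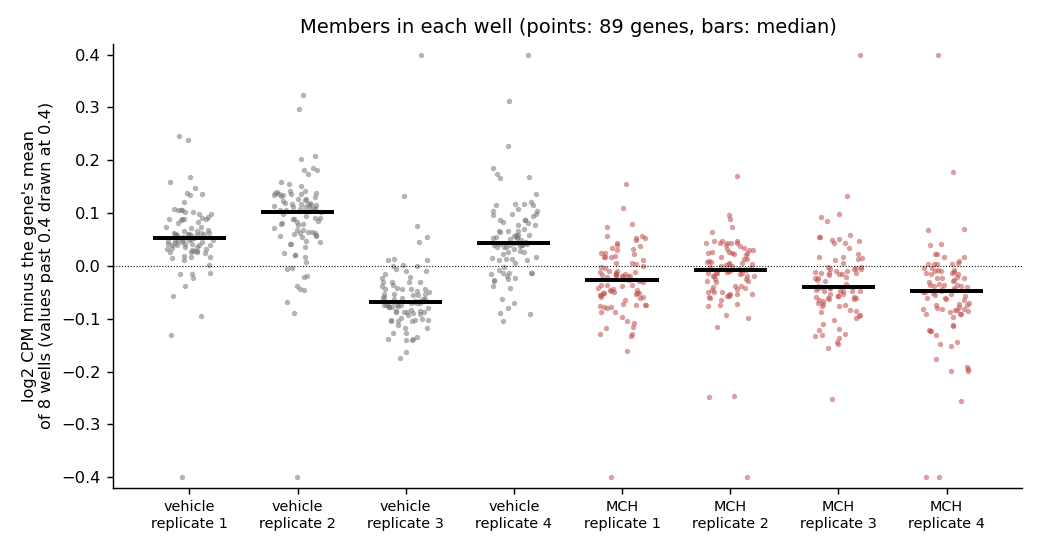
Each member's log2 CPM minus its mean over the 8 wells, by well (points, values past 0.4 drawn at 0.4), with the median of the 89 members as a bar. The vehicle medians run from -0.069 to 0.10, the MCH medians from -0.048 to -0.008.

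The assembly factor Ndufaf3 (chr9:108565537-108567434, minus strand, GRCm38) had the smallest p. It stood at 24.7, 26.4, 24.2 and 25.5 CPM in vehicle replicates 1 to 4 and at 22.2, 23.2, 23.9 and 22.6 CPM in the MCH wells. Every vehicle well was above every MCH well, which held for 1 of 89 members and for 6.03% of all genes in either direction. Its log2 fold change was -0.13 (SE 0.049, 95% interval -0.24 to -0.02, edgeR adjusted p = 0.473). The next were Atp5j, a stalk subunit of the ATP synthase (101 ± 4.04 against 94.6 ± 1.90 CPM, SD, n = 4 each), Ndufa8 (88.2 ± 5.86 against 81.4 ± 1.66 CPM), Atp5k (62.6 ± 3.12 against 58.4 ± 1.11 CPM) and Ndufv1, the NADH-binding subunit of complex I (130 ± 9.68 against 119 ± 5.10 CPM). In these 4 genes the wells of the groups overlapped, and their edgeR adjusted p ran from 0.535 to 0.597.

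Well-known subunits of each complex were also compared by name, and none was called between the treatments. Ndufs1, which holds iron-sulfur clusters of complex I, was at 137 ± 7.71 CPM in vehicle and 133 ± 3.17 CPM in MCH wells (SD, n = 4 each), a log2 fold change of -0.04 with a 95% interval of -0.15 to 0.06. Sdha, the flavoprotein of complex II, was at 340 ± 17.7 and 331 ± 11.5 CPM (-0.04, -0.14 to 0.07). Uqcrfs1, the Rieske iron-sulfur protein of complex III, was at 94.2 ± 2.59 and 91.7 ± 3.78 CPM (-0.04, -0.13 to 0.05). Cox4i1 was at 286 ± 15.8 and 273 ± 5.63 CPM (-0.07, -0.17 to 0.03). Atp5a1, the alpha subunit of the ATP synthase, was at 976 ± 31.6 and 932 ± 8.80 CPM (-0.07, -0.14 to 0.01). In all 5 genes the wells of the groups overlapped. Sdhb, Uqcrc1, Cox5a, Atp5b and Atp5c1 had log2 fold changes of -0.13 to -0.05, and in Atp5a1, Sdhb and Cox5a, among others, the difference of the means was larger than the SD of either group.

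Taking out the difference between the sides did not bring a call. With the side as a block 0 of 89 members passed, where 4.46% of all genes did, and with the replicate number as a block 0 of 89, where 3.98% did. The side block gave 21 members with an unadjusted p under 0.05 (18.2% of all genes). The median log2 fold change was -0.081 among replicates 1 and 2 alone and -0.037 among replicates 3 and 4 alone. Whether the MCH effect differs between the sides was tested as an interaction, with 0 of 89 members called (0.0267% of all genes), 6 at an unadjusted p under 0.05 (7.6% of all genes) and 0 called by DESeq2. Members are short, with a median effective length of 433 bases, and the 2551 genes tested under 1000 bases had a median log2 fold change of -0.032 with MCH, against 0.003 for longer genes. The part of length in the lean of the members was not tested.

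Between the sides the members moved little, and mostly down in replicates 3 and 4. With treatment in the edgeR fit, 19 of 89 members were called (34.7% of all genes): 18 lower in replicates 3 and 4 (16.1% of all genes) and 1 higher (18.6% of all genes). The median member was at -0.051 and the median gene at -0.005 on the log2 scale, and 70 of 89 members were below 0. The wells of the sides did not overlap for 10 members (29.6% of all genes). The sides were known from earlier results of these counts, so these counts are a description. The cell type markers given above moved with the same sides, and their part in these differences was not tested.

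Complex I had 8 of 37 genes called lower (16.1% of all genes) and a median log2 fold change of -0.042. Ndufa12, an accessory subunit, was at 70.3, 77.8, 69.0 and 67.8 CPM in replicates 1 and 2 (vehicle, then MCH) and at 61.7, 66.4, 62.5 and 65.2 CPM in replicates 3 and 4. The sides did not overlap, and the log2 fold change was -0.16 (SE 0.042, adjusted p = 0.00639). Ndufa9 fell from 102 ± 4.95 to 91.4 ± 4.43 CPM (SD, n = 4 each), a log2 fold change of -0.15 (adjusted p = 0.00282). Ndufv1 fell by 0.12 and Ndufs1 fell by 0.10 on the log2 scale (adjusted p = 0.0152 and 0.0162). Ndufs1 was not called without vehicle replicate 2 (adjusted p = 0.055), and Ndufv1 stood at -0.03 with an offset for transcript length (adjusted p = 0.735). Ndufa12 and Ndufa9 did not keep their calls under every alternative run either.

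In complex II, Sdha was called lower, at 353, 356, 341 and 341 CPM in replicates 1 and 2 (vehicle, then MCH) and 319, 332, 325 and 319 CPM in replicates 3 and 4. Its sides did not overlap, with a log2 fold change of -0.10 (SE 0.025, adjusted p = 0.00306). With an offset for the average transcript length in each well this log2 fold change was -0.0034 (adjusted p = 0.977). Sdhb, the iron-sulfur subunit of complex II, was at 132 ± 8.27 and 125 ± 4.29 CPM (adjusted p = 0.11). In complex III, 2 of 8 genes were called lower (16.1% of all genes). Uqcrq stood at 125, 133, 123 and 117 CPM in replicates 1 and 2 and at 106, 121, 107 and 107 CPM in replicates 3 and 4, where vehicle replicate 4 overlapped the other side (log2 fold change -0.17, adjusted p = 0.00132). Uqcrc2, a core protein, fell from 217 ± 6.70 to 200 ± 7.97 CPM (-0.12, adjusted p = 0.00445), with no overlap. Uqcrc1, the other core protein, was at 213 ± 9.45 and 201 ± 9.33 CPM (adjusted p = 0.0581). With the length offset neither called gene passed (adjusted p = 0.146 and 0.0635).

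Complex IV held the only member called higher, where 18.6% of all genes were. Cox6b2 (chr7:4751792-4753094, minus strand, GRCm38), the testis isoform of a subunit at the contact of the monomers of complex IV, had 28, 26, 30 and 14 counts in replicates 1 and 2 (vehicle, then MCH) and 70, 67, 82 and 65 counts in replicates 3 and 4. That is 1.08, 0.94, 0.96 and 0.53 CPM against 2.47, 2.49, 2.84 and 2.28 CPM, with no overlap. The log2 fold change was 1.52 (SE 0.21, 95% interval 1.08 to 1.96, adjusted p = 1.0e-05). Its share of the TPM of Cox6b1 and Cox6b2 was 0.380 to 0.701% in replicates 1 and 2 and 1.38 to 1.80% in replicates 3 and 4. Of the 15 genes of complex IV, 3 were called lower (16.1% of all genes). Among these 3, Cox6a2 fell from 13.8 ± 1.45 to 11.6 ± 1.40 CPM (-0.26, SE 0.083, adjusted p = 0.0202) and its common partner Cox6a1 from 186 ± 6.15 to 170 ± 11.3 CPM (-0.13, adjusted p = 0.0195). In both the sides overlapped. Neither call held without vehicle replicate 2, vehicle replicate 3 or MCH replicate 1, Cox6a1 also not without MCH replicate 4 and Cox6a2 not without MCH replicate 3 (adjusted p of 0.0544 to 0.0907). Cox4i1 (283 ± 16.3 and 275 ± 9.48 CPM) and Cox5a (99.5 ± 3.9 and 93.1 ± 10.3 CPM) were not called (adjusted p = 0.419 and 0.154).

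Complex V had 4 of 17 genes called lower (16.1% of all genes). Atp5g1 (chr11:96068852-96075670, minus strand, GRCm38) stood at 192, 197, 177 and 171 CPM in replicates 1 and 2 (vehicle, then MCH) and at 156, 166, 156 and 157 CPM in replicates 3 and 4. The sides did not overlap, and the log2 fold change was -0.21 (SE 0.032, 95% interval -0.28 to -0.15, adjusted p = 2.7e-05). Atp5g3 fell by 0.08 on the log2 scale (adjusted p = 0.0361), a call that was lost without vehicle replicate 2, vehicle replicate 3 or MCH replicate 4 (adjusted p of 0.0584 to 0.0996). The share of Atp5g1 in the TPM of the 3 ring genes was 38.4 to 40.7% in replicates 1 and 2 and 36.8 to 37.1% in replicates 3 and 4. Atp5b fell from 1179 ± 39.4 to 1095 ± 48.2 CPM (-0.11, adjusted p = 0.00114), while Atp5a1 (967 ± 34.9 and 941 ± 26.9 CPM) and Atp5c1 (218 ± 7.60 and 210 ± 7.99 CPM) were not called (adjusted p = 0.196 and 0.233). None of the 8 assembly factors was called (34.7% of all genes), and 2 had an unadjusted p under 0.05 (43.0% of all genes).

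**Figure D3:**
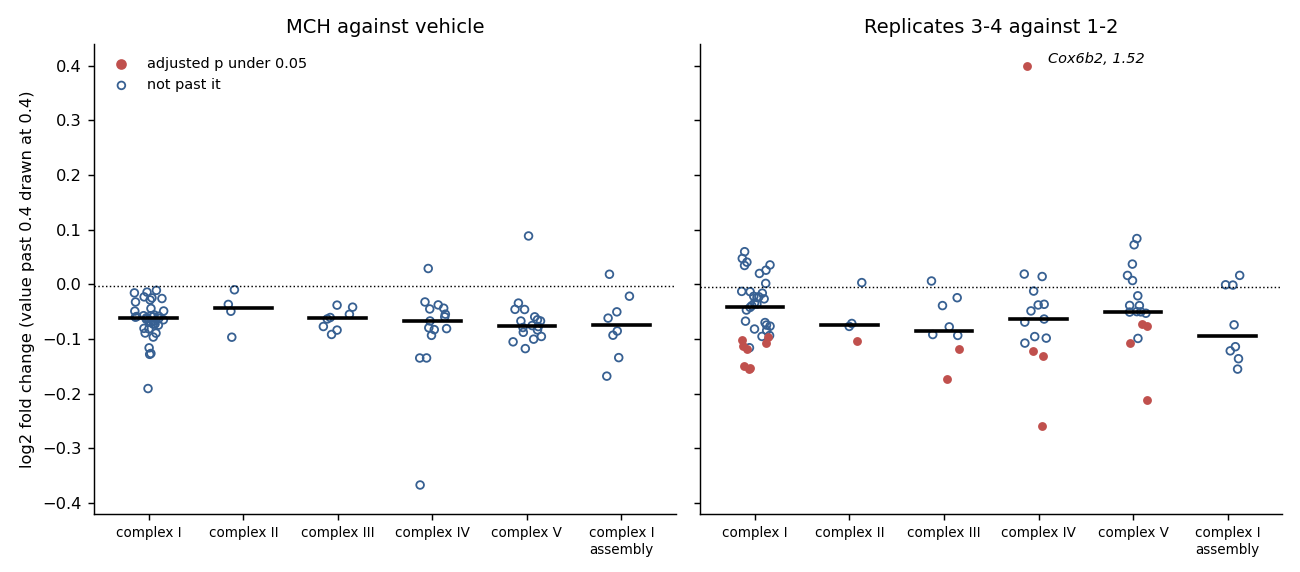
Log2 fold change of each member by complex for MCH against vehicle (left) and replicates 3 and 4 against 1 and 2 (right), with class medians as bars and the median of all genes tested as a dotted line. Filled points passed an adjusted p of 0.05, which 0 members did on the left and 19 on the right, where Cox6b2 (1.52) is drawn at 0.4.

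**Figure D4:**
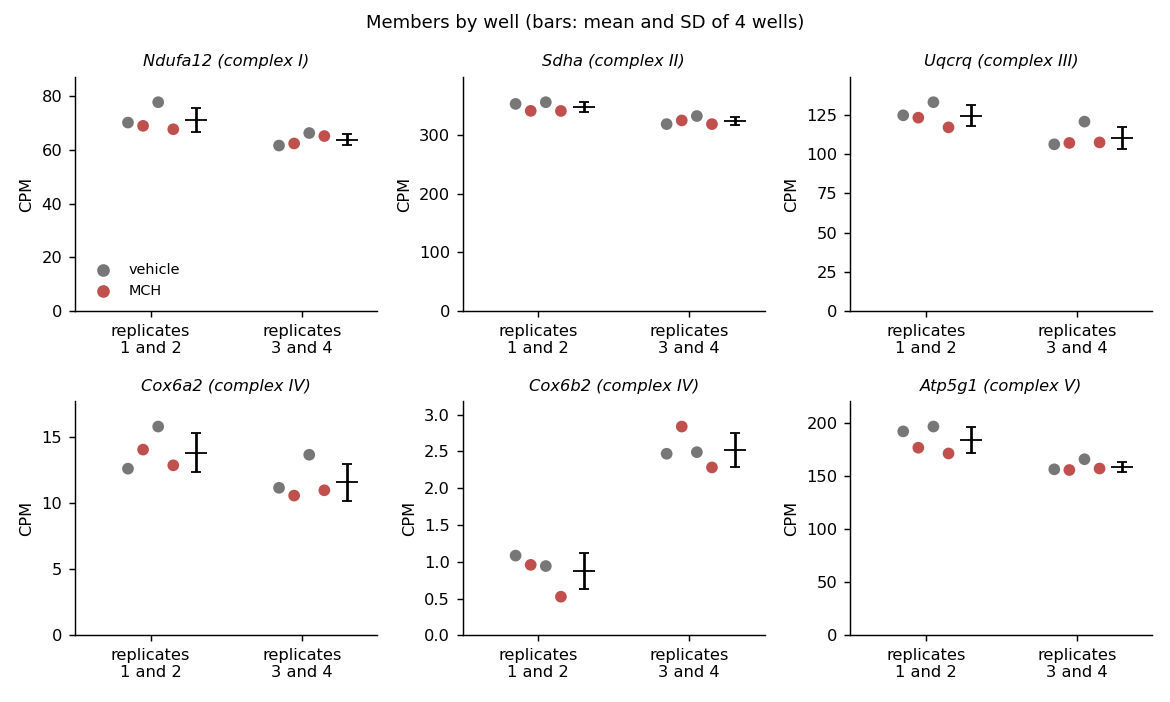
CPM in each well of 6 members, with the mean and SD of 4 wells per side. Atp5g1, Sdha and Ndufa12 are lower in replicates 3 and 4 with no overlap, Cox6a2 and Uqcrq are lower with overlap, and Cox6b2 is higher with no overlap.

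The sides were also compared within each treatment. Vehicle wells alone gave 18 members lower in replicates 3 and 4 (9.61% of all genes) and 2 higher (12.8%), with a median log2 fold change of -0.087. MCH wells alone gave 9 calls (23.4% of all genes), 8 lower (9.63%) and 1 higher (13.8%), with a median of -0.033. Without vehicle replicate 2, 10 members were called over both treatments (30.5% of all genes in that fit). Without vehicle replicate 4 there were 27 (32.8% of all genes in that fit), with library totals as the only scaling 10 (32.5%) and with the transcript length offset 7 (20.8%). The test of a difference between the treatments is the interaction given above.

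Among the subunits encoded in mitochondrial DNA, 5 of 13 genes were called higher in replicates 3 and 4 (18.6% of all genes) and 0 lower (16.1% of all genes), with a median log2 fold change of 0.35. Of the others, mt-Co3 and mt-Atp6 were lower in replicates 3 and 4 on average, at -0.64 and -0.63 (edgeR adjusted p = 0.311 and 0.16). Several share reads with nuclear copies that are at least 95% identical: the copies held 97.5% of the combined reads of mt-Co2, 96.4% of mt-Nd3, 88.2% of mt-Co3, 88.2% of mt-Nd4l and 71.2% of mt-Atp6. With the reads of copies added to the gene, an alternative chosen after the data were seen, 8 of 13 were called higher (18.7% of all genes in that fit) and 0 lower, with log2 fold changes of 0.04 to 0.39. mt-Cytb, the cytochrome b of complex III, which has no such copy, stood at 877, 802, 799 and 833 CPM in replicates 1 and 2 (vehicle, then MCH) and at 1143, 1000, 1077 and 1097 CPM in replicates 3 and 4. Its log2 fold change was 0.38 (SE 0.047, edgeR adjusted p = 0.00035). mt-Nd4 of complex I was at 0.39 (adjusted p = 0.00936) and mt-Co1, the catalytic subunit of complex IV, at 0.33 (adjusted p = 0.0122), while mt-Atp8 of complex V was at 0.04 (adjusted p = 0.698).

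Summed over the 13 genes with copies added, the mitochondrial-encoded subunits gave 10488 to 12267 CPM in replicates 1 and 2 and 12412 to 14084 CPM in replicates 3 and 4, without overlap. The nuclear-encoded members gave 9966 to 10823 CPM and 9669 to 10416 CPM, with overlap. The mitochondrial-encoded share of both sums was 51.8% ± 1.51 (SD, n = 4) in replicates 1 and 2 and 57.2% ± 2.17 in replicates 3 and 4. By treatment the share was 54.4% ± 3.73 in vehicle and 54.6% ± 3.50 in MCH wells, and 0 of 13 genes were called between the treatments by edgeR. Among the 7 genes without a copy, 4 were called between the sides over all wells (34.7% of all genes) and 5 in MCH wells alone (23.4%). In vehicle wells alone 0 were called (9.61% of all genes lower in replicates 3 and 4 and 12.8% higher), and the median log2 fold change was 0.29. Without vehicle replicate 2, 2 of the 7 were called (30.5% of all genes in that fit), and without vehicle replicate 4, 6 (32.8%). The count was also 2 without vehicle replicate 3, MCH replicate 1, MCH replicate 2 or MCH replicate 4, fits whose share of all genes is not given here.

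**Figure D5:**
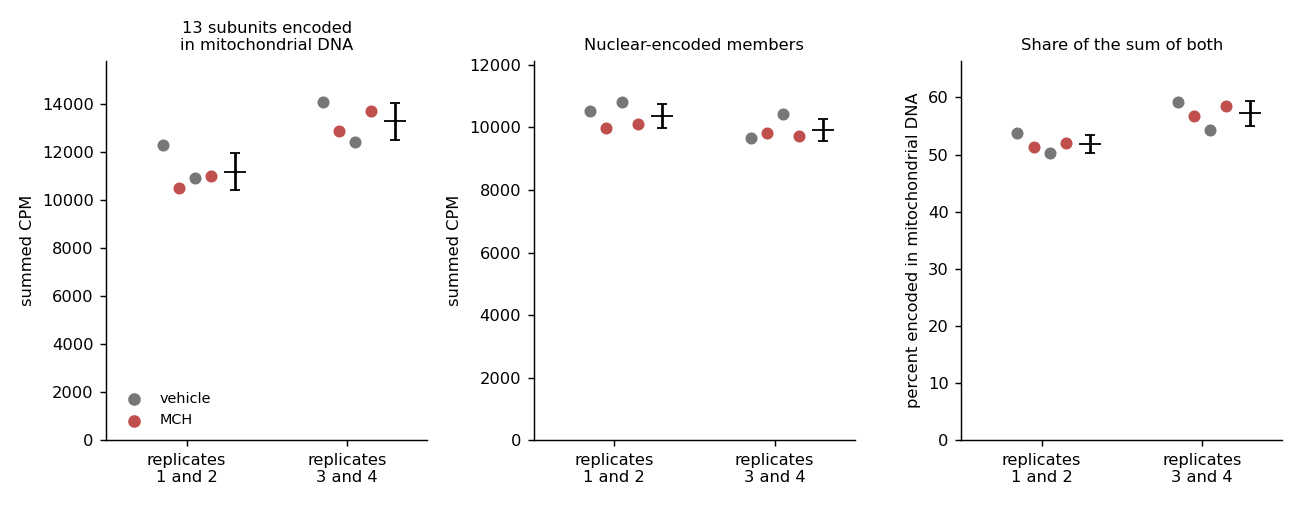
Summed CPM of the 13 subunits encoded in mitochondrial DNA (left) and of the nuclear-encoded members (middle), both with reads of near-identical copies added, and the mitochondrial-encoded percent of both sums (right), for each well with the mean and SD of 4 wells per side. The share is 50.2 to 53.8% in replicates 1 and 2 and 54.4 to 59.3% in replicates 3 and 4.

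Among the members themselves, reads were shared in few cases. Of 89 members, 86 had no copy at the same limit of identity over 80% of the transcript. Ndufab1 shares reads with Gm4459, which held 47.3% of their combined counts, and Ndufb4c is itself a copy of Ndufb4, so the values of these genes are uncertain. Gm10175, a copy of Atp5g2, held 1.01% of their combined counts. With copies added, 18 of 88 members were called between the sides (34.7% of all genes in that fit) and 0 of 88 between the treatments (0.234%).

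Other genes of energy metabolism, from lists written with earlier results of these data known, were examined in the same fits, and 0 genes of any of these lists were called between MCH and vehicle. With MCH, log2 fold changes were below 0 in 27 of 30 genes of mitochondrial import and the inner membrane and 16 of 19 of the tricarboxylic acid cycle. They were below 0 in 14 of 17 of glycolysis, 15 of 19 of electron carriers and their synthesis and 21 of 43 assembly factors outside the rule. Among genes that maintain mitochondrial DNA or regulate mitochondrial genes it was 6 of 18, and among subunits encoded in mitochondrial DNA 7 of 13. Of all genes tested, 51.0% were below 0. Between the sides, where 16.1% of all genes were called lower in replicates 3 and 4 and 18.6% higher, 9 of 43 assembly factors outside the rule were lower in replicates 3 and 4 and 0 higher, and 11 of 30 genes of mitochondrial import and the inner membrane were lower and 0 higher. Of 19 genes of electron carriers and their synthesis, 4 were lower and 2 higher. The lower ones include Cycs (cytochrome c, 154 ± 10.6 and 144 ± 5.86 CPM, adjusted p = 0.0307) and Cyc1, the cytochrome c1 subunit of complex III, whose symbol lies outside the patterns used (132 ± 7.69 and 122 ± 7.10 CPM, adjusted p = 0.0234). Of 19 genes of the tricarboxylic acid cycle 10 were lower and 2 higher: Idh2, the NADP-dependent mitochondrial isocitrate dehydrogenase, rose from 22.3 ± 1.86 to 33.6 ± 2.46 CPM, and Suclg2, the GTP-forming succinyl-CoA ligase subunit, from 3.28 ± 0.234 to 8.18 ± 0.369 CPM (SD, n = 4 each). Glycolysis had 10 of 17 lower and 3 higher, among them Aldoc, which is also an astrocyte marker. Of 18 genes that maintain mitochondrial DNA or regulate mitochondrial genes, 2 were lower. The genes named from these lists are no members and were picked with their values in view.

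The spread over the wells was small in most members, and it was not compared with that of other genes. The coefficient of variation over the 8 wells had a median of 5.16% and was under 10% in 83 of 89 members, from 2.95% (Ndufa6) to 53.3% (Cox6b2).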

How the data were processed

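Poly-A RNA of 4 vehicle and 4 MCH wells was sequenced from stranded TruSeq libraries. The authors deposited estimated counts per gene, made with Salmon on GRCm38 through the nf-core/rnaseq pipeline and tximport, and per well transcript tables of estimated counts and TPM. Counts were rounded and fitted with edgeR 4.0.16 (TMM factors, filterByExpr at a count minimum of 10, robust quasi-likelihood test, Benjamini-Hochberg adjustment over all 14962 genes tested, threshold 0.05) in R 4.3.3. DESeq2 1.42.0 was an alternative. Gene TPM was summed over transcripts named in GENCODE vM21. Copies were sought with blastn 2.17.0. Fits were also run on simulated counts with known changes and a fixed spread between wells. The simulation held no broad difference between the sides, so it cannot judge the MCH fit without a side term on these wells. Wells of the same number deviated together (correlations of 0.445 to 0.545), but wells of another number on the same side did so as much (0.475 to 0.521), and no label states a pairing. The fit with the number as a block was run beside the main one. By the study's methods the 8 wells stem from 2 cultures, and no source ties a well to its culture. So p-values, intervals and SDs measure the spread between these wells and not that between independent cultures. The precision follows 26083936 to 31844861 counts per well. Members and lists were chosen with earlier results of these data known. Named members were those called or among the 5 smallest p for MCH, the 2 highest and 2 lowest called per class between sides, the highest TPM per class, isoforms and a list of well-known subunits, of which 1 is not reported here. Effective lengths (other columns of the transcript tables) served as an offset in an alternative only.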

Additional observations from a re-analysis of the deposited data

Results flagged for a closer look

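Among 80 groups of 4 wells, 2 held a well far from the other 3, where chance gives about 1 in 20 groups. Sdhb, the iron-sulfur subunit of complex II, was at 126.7 CPM in MCH replicate 1 and at 123.5 to 123.9 CPM in the other MCH wells. The summed TPM of the 8 complex I assembly factors was 260.0 in MCH replicate 4 and 277.7 to 279.1 in the other MCH wells.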

How the results depend on the processing

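The count of members called between replicates 3 and 4 and replicates 1 and 2 was 19, and it was 10 with library totals as the only scaling (32.5% of all genes), 7 with a transcript length offset (20.8%) and 9 in the MCH wells alone (23.4%), and it ran from 10 (without vehicle replicate 2, 30.5%) to 27 (without vehicle replicate 4, 32.8%) when each well was left out; the cause was not tested. Of 221 alternative values of 13 named members called there, 184 kept direction and call and 37 kept direction but lost the call, and Atp5b, Atp5g1 and Cox6b2 kept both under every alternative run. The interaction of MCH and side, with 0 members called (0.0267% of all genes), had 2 without the filter on low counts and 0 to 1 when each well was left out (1 without MCH replicate 2). The shares of all genes called in these alternative fits are not given here, so their counts cannot be set against a background. Between MCH and vehicle 0 members were called under every alternative run, the replicate block (0) and the side block (0) included, and the pairing of wells by number changed no call. The 270 alternative values of the 15 named members reported here kept their direction and stayed past no threshold; the settings of replicates 1 and 2 or 3 and 4 alone were chosen after the data were seen. The count of mitochondrial-encoded subunits called between the sides, 5 of 13 (34.7% of all genes), was 2 in vehicle wells alone (9.61% of all genes lower, 12.8% higher). It was 12 without the filter, a fit whose share of all genes is not given here. When each well was left out it ran from 3 to 7 (30.5% of all genes without vehicle replicate 2, 32.8% without vehicle replicate 4). Members at 11 to 30 counts in a well (Cox7a1 and Cox6b2) are limited by depth.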
